A study of Mus musculus with 6 samples.

Results

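The 38 genes described here encode the transporters and enzymes that take glucose to lactate, the regulators of that flow, the hypoxia-inducible factors (HIF) with the proteins that control them, and other genes known to respond to HIF. They were taken by symbol from a list that was drawn up with earlier results of these data known, and all 38 were among the 16982 genes of the count table and among the 13386 genes that passed the filter on low counts. RNA of mouse embryonic fibroblasts (MEF) on day 3 of reprogramming was sequenced from 3 WT and 3 Rnf20 knockout cultures. The labels give the genotypes as wild type and Rnf20-/-, the strain background as C57BL/6, the cell type as reprogrammable cells, and no treatment for all 6 cultures. The methods of the study state that both kinds of culture carried retroviruses for the reprogramming factors OCT4, SOX2, C-MYC and KLF4, that infected cells were replated on feeder layers of mitomycin-C-treated MEF, and that 4-OH tamoxifen induced the knockout in Rnf20 flox/flox cells through a tamoxifen-inducible Cre that is expressed ubiquitously. Whether the WT cultures carried the floxed alleles and the Cre or received the drug is not given in the sources used here, so the knockout and the drug cannot be told apart.

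Glycolysis splits glucose into pyruvate in the cytoplasm and yields ATP without oxygen, and lactate dehydrogenase then turns pyruvate into lactate. HIF-1α and HIF-2α are transcription factors that prolyl hydroxylases mark for destruction by the VHL ligase when oxygen is present, so that in low oxygen they accumulate and switch on glucose transporters, glycolytic enzymes and genes of blood vessel growth and collagen folding. In reprogramming, fibroblasts are known to shift early from oxidative metabolism towards glycolysis. RNF20 is an E3 ligase that attaches ubiquitin to histone H2B, a mark of transcribed genes.

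The 6 libraries held 20545442 to 21746898 counts, and 3 counts in a library correspond to 0.142 to 0.143 CPM (library-scaled counts after TMM normalization). Values of single libraries are given below in the order of replicates 1 to 3, and log2 changes (knockout over WT) with their standard error from edgeR. The CPM of Rnf20, the targeted gene, was 107, 107 and 106 in WT and 18.7, 18.5 and 16.4 in knockout cells, with a log2 change of -2.57 ± 0.0812 (edgeR adjusted p = 0.000163). Knockout replicate 3 stood apart from the other knockout libraries. A chi-square value per gene (near 1 if a pair of libraries differ only by sampling) was 92.8 and 102 between it and the other knockout libraries, against 8.59 between knockout replicates 1 and 2 and 6.06 to 8.96 between WT libraries. Knockout replicates 1 and 3 had no count of the Y-linked gene Ddx3y, which lay at 94.4 to 128 CPM elsewhere. Of 10 fibroblast markers, all were tested, Thy1 and Pdgfra were lower in knockout cells, and the summed level was 30937 to 33649.6 in WT and 32451, 40599.8 and 21811 in the knockout libraries. None of 8 macrophage markers was called, and their summed CPM was 47.4 to 95.5 in WT and 79.0, 50.9 and 256 in the knockout libraries, with no marker at 0 in all libraries. Of 6 tested epithelial markers Krt19 was higher and Cldn3 lower, with a summed CPM of 57.1 to 61.2 in WT and 77.9, 54.2 and 22.2 in the knockout libraries. The log2 change was negative in 5 of the 6 and positive in 1, with a median of -1.20, and -0.80 without knockout replicate 3. Neither of the 2 tested endothelial markers was called, with a summed CPM over the list of 48.5 to 59.0 in WT and 67.4, 53.7 and 32.5 in the knockout libraries. All 10 proliferation genes were lower in knockout cells, with a summed CPM of 1429 to 1505 in WT and 609, 528 and 204 in the knockout libraries. The part of these differences in the results below was not tested, and in bulk RNA fewer cells of a type and less RNA per cell cannot be told apart. Nothing in the sources used here says how the 3 cultures of a genotype were separated, so the p-values measure the spread between these samples.

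Knockout cells held more RNA of Hif1a and Epas1, the genes of HIF-1α and HIF-2α, and of 4 other HIF-responsive genes, Ndrg1, Ero1l, P4ha2 and P4ha1. Of the glycolytic enzymes, Pgam1, Pkm and Eno1 were higher (Eno1 not when summed with its near-identical copy Eno1b), and so was the glucose transporter gene Slc2a1. Aldoc, Car9, Slc16a3 and Pfkfb4 were lower. At an adjusted p under 0.05 (quasi-likelihood test of edgeR, adjusted by Benjamini-Hochberg over all 13386 genes), 10 of the 38 genes were higher and 4 were lower in knockout cells, and 24 did not pass the test. Of all genes tested 16.4% were higher and 16.6% lower at that threshold. The median log2 change (knockout over WT) was 0.19 over the 38 genes and -0.00032 over all genes tested. The 3 knockout libraries lay all above the 3 WT libraries in 15 of the 38 genes and all below in 7, together 22 of 38, and 54.8% of all genes tested had libraries that did not overlap. Ero1l and Ndrg1 also passed the stricter limits that the study set, namely 0.01 for the adjusted p, a size above 1 on the log2 scale and an FPKM mean of more than 1 for either genotype, and 3.59% of all genes tested passed them.

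Knockout replicate 3 was the highest of the 6 libraries in 22 of the 38 genes and the lowest in 6, and among the 16 glycolytic enzymes it was the highest in 11. Without it, 15 genes were higher and 10 lower at the same threshold, against 23.9% and 24.2% of the 13529 genes then tested. These included the 14 genes called with all 6 libraries, in the same directions. The 5 further higher genes were Aldoa, Gapdh, Pgk1, Car12 and Bnip3, and the 6 further lower genes were Pfkm, Tpi1, Pfkfb3, Pdk1, Vhl and Vegfa. The median over the 38 genes was then 0.091. The calls also depended on other libraries, with all 14 directions kept. Without WT replicate 1, 8 of the 14 calls held, and those of Slc16a3, Pgam1, Eno1, Pkm, Pfkfb4 and Hif1a were lost (edgeR adjusted p of 0.0570 to 0.114). Without WT replicate 2, the calls of Aldoc, Epas1, Ero1l and Ndrg1 held and the other 10 were lost (0.0522 to 0.144), and without WT replicate 3 those of Epas1, Ero1l and Ndrg1 held and 11 were lost (0.0518 to 0.144). Slc16a3 and Pfkfb4 were lost without knockout replicate 1 or 2, and Pkm without replicate 1 (0.0724 to 0.113 over these fits). Calls over all genes also became fewer in these fits. Of the 13386 genes, 2218 were lower and 2195 higher with all libraries. The numbers were 988 and 941 without WT replicate 1, 832 and 775 without WT replicate 2, and 699 and 691 without WT replicate 3. Without knockout replicate 1 they were 1817 and 1909, and without knockout replicate 2 they were 1569 and 1657. With a term for Y-linked counts none of the 14 genes passed the test (edgeR adjusted p of 0.0590 to 0.411), and 109 of all 13386 genes did. Epas1, Ero1l and Ndrg1 had an adjusted p under 0.05 from edgeR with any 1 of the 6 libraries left out.

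**Figure D1:**
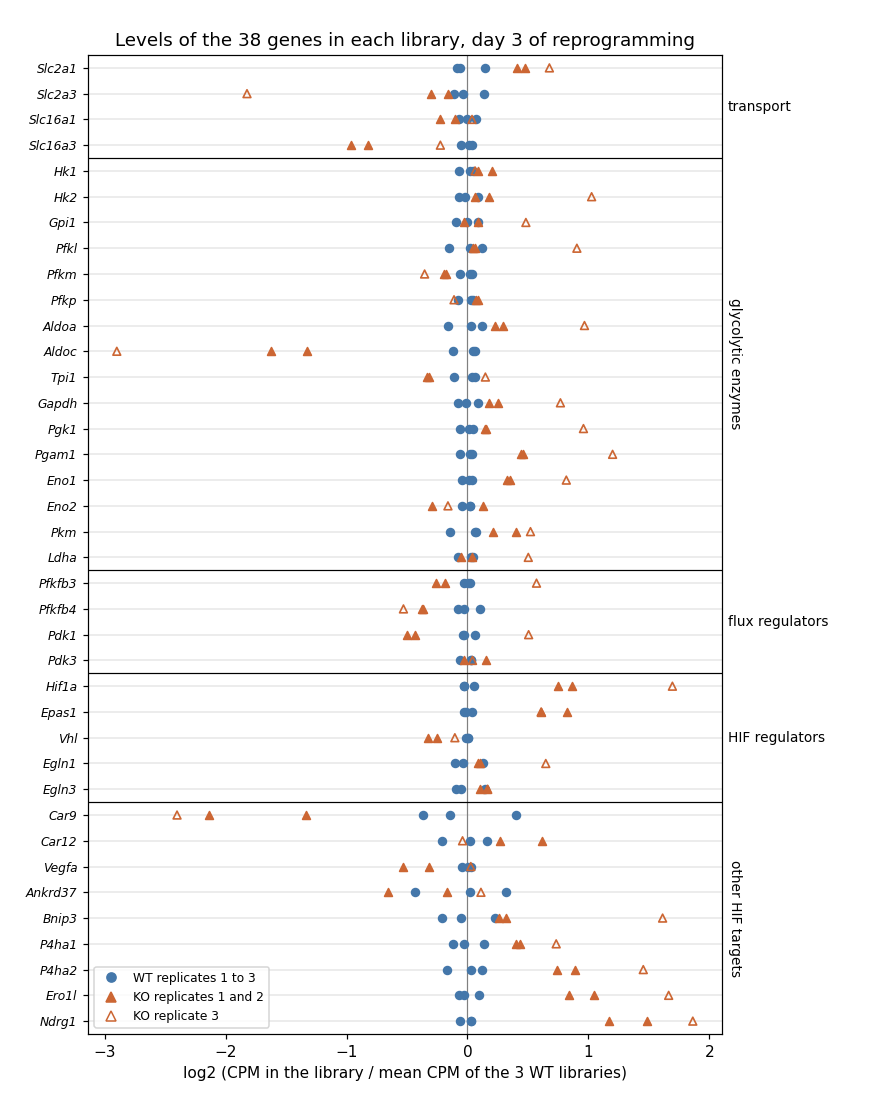
Level of each of the 38 genes in each library, as log2 of its CPM over the mean CPM of the 3 WT libraries, with circles for WT, filled triangles for knockout replicates 1 and 2 and open triangles for knockout replicate 3. Hif1a, Ero1l, P4ha2 and Ndrg1 lie to the right in all 3 knockout libraries, Aldoc and Car9 to the left, and the open triangle is the farthest point to the right in 22 genes.

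HIF binds a core of ACGTG or GCGTG in DNA, so these letters were looked up on both strands (on the other strand they read CACGT and CACGC) in the RefSeq promoter windows of GRCm38.p6, from 250 bases before to 50 bases after a start site. Windows were found for 35 of the 38 genes, 10 of them with several windows, and none for Slc2a3, Epas1 and Ndrg1. The core was in at least 1 window of 30 of the 35 genes (85.7%), and in 46.7% of the 27025 genes with windows. It was in at least 1 window of all 8 higher genes with windows, of all 4 lower genes and of 18 of the 23 genes that did not pass the test. The E-box CACGTG, which is bound by C-MYC and holds the core on both strands, was in 6 of the 35 genes (17.1%) and in 8.09% of all genes with windows. The 250 bases before the first listed start are shown for 4 higher genes (Slc2a1, P4ha1, P4ha2 and Ero1l, listed by RefSeq as Ero1a) and 3 lower genes (Slc16a3, Aldoc and Car9), because both kinds held the core while their RNA differed in opposite directions. Capitals mark the core on either strand, each sequence is read 5′ to 3′ on the strand of its gene, and a match of these letters is no measured binding site. The windows are chr4:119108495-119108744 (plus strand) for Slc2a1, chr10:59323046-59323295 (plus strand) for P4ha1, chr11:54100674-54100923 (plus strand) for P4ha2, chr14:45318573-45318822 (minus strand) for Ero1l, chr11:120948817-120949066 (plus strand) for Slc16a3, chr11:78322823-78323072 (plus strand) for Aldoc and chr4:43506776-43507025 (plus strand) for Car9.
Slc2a1: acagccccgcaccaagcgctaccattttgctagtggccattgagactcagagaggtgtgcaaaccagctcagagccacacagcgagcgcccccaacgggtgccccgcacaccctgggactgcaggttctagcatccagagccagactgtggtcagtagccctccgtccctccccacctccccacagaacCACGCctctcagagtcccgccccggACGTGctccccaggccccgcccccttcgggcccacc
P4ha1: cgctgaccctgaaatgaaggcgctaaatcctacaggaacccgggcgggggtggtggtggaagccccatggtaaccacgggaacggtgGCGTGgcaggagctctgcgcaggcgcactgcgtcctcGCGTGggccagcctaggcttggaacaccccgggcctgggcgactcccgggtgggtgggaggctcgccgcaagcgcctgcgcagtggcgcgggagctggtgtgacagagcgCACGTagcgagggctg
P4ha2: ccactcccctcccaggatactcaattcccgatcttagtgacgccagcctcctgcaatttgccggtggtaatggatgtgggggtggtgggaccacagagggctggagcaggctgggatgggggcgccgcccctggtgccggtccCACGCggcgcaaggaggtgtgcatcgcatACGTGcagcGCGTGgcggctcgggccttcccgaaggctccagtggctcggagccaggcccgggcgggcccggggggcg
Ero1l: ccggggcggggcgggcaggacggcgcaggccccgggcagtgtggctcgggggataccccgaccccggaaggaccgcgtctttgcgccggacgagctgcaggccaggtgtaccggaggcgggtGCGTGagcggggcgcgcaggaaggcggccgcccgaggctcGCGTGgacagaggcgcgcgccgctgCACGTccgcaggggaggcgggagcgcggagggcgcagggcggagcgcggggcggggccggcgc
Slc16a3: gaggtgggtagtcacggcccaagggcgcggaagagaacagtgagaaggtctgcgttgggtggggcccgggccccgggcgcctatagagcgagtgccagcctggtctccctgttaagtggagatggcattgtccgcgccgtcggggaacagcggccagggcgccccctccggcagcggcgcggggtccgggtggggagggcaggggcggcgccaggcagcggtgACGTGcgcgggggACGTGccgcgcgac
Aldoc: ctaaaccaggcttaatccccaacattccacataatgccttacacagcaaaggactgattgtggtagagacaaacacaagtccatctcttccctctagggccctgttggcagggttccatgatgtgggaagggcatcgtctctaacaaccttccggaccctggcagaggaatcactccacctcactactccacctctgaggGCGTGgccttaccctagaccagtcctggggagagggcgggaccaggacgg
Car9: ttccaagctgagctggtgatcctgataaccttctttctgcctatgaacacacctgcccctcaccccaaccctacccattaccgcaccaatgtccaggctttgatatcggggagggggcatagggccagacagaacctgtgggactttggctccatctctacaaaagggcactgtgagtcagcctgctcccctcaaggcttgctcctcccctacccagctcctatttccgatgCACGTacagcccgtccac
In these 250 bases the core occurred 3 times for P4ha1, P4ha2 and Ero1l, 2 times for Slc2a1 and Slc16a3, and 1 time for Aldoc and Car9. With the 50 bases after the start included, the numbers were 4 for P4ha2 and 3 for Aldoc, and unchanged for the others shown. The first listed window of Pkm, a higher gene not shown, held no core. The genes shown were picked, so these numbers do not compare higher with lower genes.

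Among the 5 regulators of the HIF pathway, Hif1a and Epas1 rose and none fell. Of the other HIF subunit genes, named here after their values were seen, Hif3a and Arnt fell, and Arnt2 had a log2 change of 0.48 (edgeR adjusted p = 0.143) and 0.17 without knockout replicate 3. Hif3a, the gene of HIF-3α, had CPM values of 1.62, 1.33 and 1.38 in WT and 0.668, 0.712 and 0.286 in knockout cells and a log2 change of -1.37 ± 0.388 (edgeR adjusted p = 0.0368). Arnt, the gene of the partner HIF-1β, had CPM values of 119.9, 125 and 119 in WT and 105, 100.2 and 82.3 in knockout cells and a log2 change of -0.34 ± 0.102 (edgeR adjusted p = 0.0421). The libraries of Hif3a and of Arnt did not overlap between genotypes. With 1 library left out at a time, Hif3a kept an edgeR adjusted p under 0.05 in 1 of 6 fits (up to 0.115) and Arnt in 2 (up to 0.130). The median log2 change of the 5 genes was 0.31, and 0.13 without knockout replicate 3. The CPM of Hif1a (ENSMUSG00000021109, chr12:73901375-73947530, plus strand), which encodes HIF-1α, was 176, 167 and 167 in WT and 286, 311 and 552 in knockout cells. All 3 knockout libraries lay above WT, and replicate 3 was the highest. Its RNA rose 2.25-fold, a log2 change of 1.17 ± 0.246 (edgeR adjusted p = 0.0155), and its log2 change was 0.81 without knockout replicate 3 (edgeR adjusted p = 3.37e-06). The CPM of Epas1 (ENSMUSG00000024140, chr17:86753700-86833410, plus strand), which encodes HIF-2α, was 37.3, 37.0 and 38.5 in WT and 66.6, 57.4 and 57.4 in knockout cells. The knockout libraries were again all above WT, but here replicate 3 lay no higher than replicate 2. Epas1 rose 1.61-fold with a log2 change of 0.68 ± 0.0846 (edgeR adjusted p = 0.00400). Per kilobase of gene length, Hif1a had a mean of 35.3 CPM in WT and 79.3 in knockout cells, and Epas1 7.08 and 11.4.

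The 3 genes that act against HIF did not pass the test. Egln1 and Egln3 encode prolyl hydroxylases, which mark HIF for VHL, and their libraries overlapped between genotypes with log2 changes of 0.31 and 0.14. Replicate 3 was the highest library of Egln1, and the log2 change of Egln1 was 0.10 without knockout replicate 3 (edgeR adjusted p = 0.288). Vhl encodes the part of the ubiquitin ligase that recognises HIF, and its CPM was 37.2, 37.1 and 36.7 in WT and 29.5, 31.1 and 34.4 in knockout cells. The 3 knockout values of Vhl were all below those of WT by a small margin, with a log2 change of -0.22 ± 0.0837 (edgeR adjusted p = 0.0813). Its log2 change was -0.29 without knockout replicate 3 (edgeR adjusted p = 0.00751). Hif1an, Cited2 and Egln2, further genes known to act against HIF, are named here after their values were seen. Hif1an rose with a log2 change of 0.36 ± 0.0739 (edgeR adjusted p = 0.0139), and Cited2 with 0.79 ± 0.109 (edgeR adjusted p = 0.00533). With 1 library left out at a time, Hif1an kept an edgeR adjusted p under 0.05 in 4 of 6 fits and Cited2 in 6. Egln2 did not pass the test (-0.068, edgeR adjusted p = 0.645).

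Of the 9 other HIF-responsive genes, Ndrg1, Ero1l, P4ha2 and P4ha1 rose and Car9 fell. The median log2 change of the 9 genes was 0.53, and 0.42 without knockout replicate 3. The CPM of Ndrg1 (ENSMUSG00000005125, chr15:66929318-66969640, minus strand), a gene induced by stress and differentiation, was 20.6, 21.9 and 21.9 in WT and 48.4, 59.9 and 78.1 in knockout cells. Each knockout library held more than 2 times the CPM of any WT library. Ndrg1 rose 2.90-fold with a log2 change of 1.53 ± 0.173 (edgeR adjusted p = 0.00349). Ero1l (ENSMUSG00000021831, chr14:45283087-45318771, minus strand) encodes an oxidase that forms disulfide bonds in the endoplasmic reticulum, and its CPM was 89.9, 82.9 and 80.1 in WT and 174, 151 and 267 in knockout cells. It rose 2.34-fold, with all knockout libraries above WT and replicate 3 the highest, and had a log2 change of 1.23 ± 0.209 (edgeR adjusted p = 0.00853).

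P4ha1 and P4ha2 encode the catalytic subunits of collagen prolyl 4-hydroxylase, which the collagen triple helix needs to be stable. The CPM of P4ha1 (ENSMUSG00000019916, chr10:59323296-59373304, plus strand) was 199, 167 and 178 in WT and 239, 244 and 301 in knockout cells, with a log2 change of 0.53 ± 0.116 (edgeR adjusted p = 0.0172). The CPM of P4ha2 (ENSMUSG00000018906, chr11:54100095-54131665, plus strand) was 53.2, 43.6 and 50.02 in WT and 81.6, 90.5 and 134 in knockout cells, with a log2 change of 1.06 ± 0.195 (edgeR adjusted p = 0.0104). Neither gene's libraries overlapped between genotypes. P4ha2 made up 30.8, 30.3 and 31.9% in WT and 36.2, 38.1 and 42.5% in knockout cells of the per-length level of both genes. Its share was higher in each knockout library than in any WT library, and the exact two-sided permutation test of the log2 ratio gave p = 0.1, the smallest that 3 against 3 libraries allow.

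Car9 and Car12 encode carbonic anhydrases, membrane enzymes that turn over carbon dioxide and bicarbonate at the cell surface. Car9 fell and Car12 did not pass the test. The CPM of Car9 (ENSMUSG00000028463, chr4:43506966-43513729, plus strand) was 1.95, 3.32 and 2.28 in WT and 0.573, 0.997 and 0.476 in knockout cells, the lowest per-length level of the 38 genes in both genotypes (1.24 and 0.337 CPM per kilobase). Its knockout counts were few but lay all below WT, with a log2 change of -1.87 ± 0.385 (edgeR adjusted p = 0.0144). The summed counts were 43 in knockout and 159 in WT libraries, a ratio of 0.271 with a 95% interval of 0.189 to 0.382 (exact, counting error only). Car12 had CPM values of 13.4, 10.3 and 12.1 in WT and 18.3, 14.4 and 11.6 in knockout cells, which overlapped, and its log2 change of 0.31 did not pass the test (edgeR adjusted p = 0.246).

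The remaining HIF-responsive genes did not pass the test with all libraries. Vegfa encodes the main growth factor of blood vessels, and its CPM was 88.1, 91.1 and 92.7 in WT and 62.8, 72.8 and 92.4 in knockout cells. Knockout replicates 1 and 2 were below every WT library and replicate 3 was within their range, with a log2 change of -0.25 ± 0.140 (edgeR adjusted p = 0.199) and -0.42 without knockout replicate 3 (edgeR adjusted p = 0.00102). Bnip3 encodes a mitochondrial receptor for autophagy, and its CPM was 69.9, 51.6 and 57.7 in WT and 71.6, 74.4 and 183 in knockout cells. Replicate 3 held more than 2 times the CPM of any other library, and the log2 change was 0.88 with all libraries (edgeR adjusted p = 0.113) and 0.29 without knockout replicate 3 (edgeR adjusted p = 0.0438). Ankrd37, an ankyrin repeat gene, had 1.42 to 2.80 CPM over all 6 libraries, which overlapped, with a log2 change of -0.20 (edgeR adjusted p = 0.641) and -0.39 without knockout replicate 3 (edgeR adjusted p = 0.355).

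Among the 4 transporter genes, Slc2a1 rose and Slc16a3 fell. The median log2 change of the 4 genes was -0.34, and -0.19 without knockout replicate 3. The CPM of Slc2a1 (ENSMUSG00000028645, chr4:119108711-119137983, plus strand), the gene of the glucose transporter GLUT1, was 81.6, 69.5 and 70.8 in WT and 98.0, 103 and 118 in knockout cells. Each knockout library was above every WT library, with a log2 change of 0.52 ± 0.104 (edgeR adjusted p = 0.0127). Slc2a3 encodes GLUT3, a transporter with a higher affinity for glucose, and its CPM was 43.2, 48.8 and 41.0 in WT and 39.7, 36.0 and 12.5 in knockout cells. Its knockout libraries were all below WT, far below in replicate 3 only, and its log2 change of -0.59 ± 0.385 (edgeR adjusted p = 0.268) did not pass the test, with -0.23 without knockout replicate 3 (edgeR adjusted p = 0.0558). The share of Slc2a3 in the per-length level of both glucose transporters was 30.3, 36.6 and 32.3% in WT and 25.0, 22.4 and 8.02% in knockout cells, and the genotypes did not overlap (p = 0.1 from the exact permutation test).

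Of the lactate transporter genes, Slc16a3 fell and Slc16a1 did not pass the test. Slc16a3 (ENSMUSG00000025161, chr11:120948480-120960868, plus strand) encodes MCT4, which exports lactate, and its CPM was 67.4, 64.0 and 68.3 in WT and 34.1, 37.7 and 57.0 in knockout cells. Its RNA had a log2 change of -0.63 ± 0.189 (edgeR adjusted p = 0.0425), and -0.89 without knockout replicate 3 (edgeR adjusted p = 7.54e-06). Replicate 3 was the closest of the knockout libraries to WT. Slc16a1, the gene of MCT1, which carries lactate both ways, had overlapping libraries of 60.9 to 74.6 CPM and a log2 change of -0.093 (edgeR adjusted p = 0.446) and -0.16 without knockout replicate 3 (edgeR adjusted p = 0.0760).

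The 6 highest per-length levels in WT cells were all of glycolytic enzyme genes. Of the 16 enzyme genes 3 rose (Pgam1, Eno1 and Pkm), 1 fell (Aldoc) and 12 did not pass the test, with a median log2 change of 0.29. Without knockout replicate 3 the median was 0.10, and 6 were higher and 3 lower. Over all genes tested, 16.4% were higher and 16.6% lower with all libraries, and 23.9% and 24.2% without knockout replicate 3. The summed CPM of the 16 genes was 7657 to 8413 in WT and 9520.3, 9159 and 13096 in the knockout libraries. All 3 sums were above WT, and that of replicate 3 was the highest. Per kilobase of gene length, the WT mean was highest for Gapdh (1014 CPM per kilobase), followed by Pkm (702), Eno1 (480.2), Ldha (438), Pgk1 (294) and Aldoa (277), and the WT libraries of Pgk1 and Aldoa overlapped on that scale.

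In the first steps of the pathway, which spend ATP, no gene passed the test with all libraries. Hk1 and Hk2 encode hexokinases, which trap glucose in the cell as glucose 6-phosphate, and their log2 changes were 0.12 (edgeR adjusted p = 0.243) and 0.49 (edgeR adjusted p = 0.172). The CPM of Hk1 was 130, 122 and 133 in WT and 147, 136 and 134 in knockout cells. All 3 knockout libraries of Hk1 were above WT, replicate 3 by a small margin. The CPM of Hk2 was 44.2, 47.7 and 42.9 in WT and 47.0, 50.8 and 91.5 in knockout cells, so that only replicate 3 stood clear of WT, and its log2 change was 0.12 without knockout replicate 3 (edgeR adjusted p = 0.182). Gpi1, the gene of glucose 6-phosphate isomerase, had overlapping libraries and a log2 change of 0.20, and 0.036 without knockout replicate 3. The phosphofructokinase genes Pfkl, Pfkm and Pfkp, which encode the subunits of the committed step, had log2 changes of 0.40, -0.24 and 0.019, and none passed the test. The CPM of Pfkl was 114, 95.2 and 107 in WT and 109, 110.3 and 198 in knockout cells, so that its knockout replicates 1 and 2 were within the range of WT, and its log2 change was 0.056 without knockout replicate 3 (edgeR adjusted p = 0.564). That of Pfkp was 0.081 without knockout replicate 3 (edgeR adjusted p = 0.324). Pfkm, the muscle form, had CPM values of 66.3, 70.3 and 71.0 in WT and 61.4, 60.6 and 54.2 in knockout cells, all 3 lower in knockout cells by a small margin, with an adjusted p of 0.0578 (edgeR), and 0.0340 without knockout replicate 3.

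Aldolase cleaves fructose 1,6-bisphosphate, and its isozyme genes lay on opposite sides of WT. The CPM of Aldoc (ENSMUSG00000017390, chr11:78322968-78327781, plus strand), known as the brain form, was 72.6, 64.3 and 72.1 in WT and 27.7, 22.6 and 9.34 in knockout cells. Every knockout library was below WT and replicate 3 was the lowest. Aldoc fell 3.50-fold with a log2 change of -1.81 ± 0.356 (edgeR adjusted p = 0.0126). Aldoa (ENSMUSG00000030695, chr7:126795234-126800751, minus strand), the widely expressed form, had CPM values of 663, 543 and 620.0 in WT and 747, 713 and 1190.4 in knockout cells. All 3 knockout libraries of Aldoa were above WT, but its log2 change of 0.54 ± 0.207 (edgeR adjusted p = 0.0876) did not pass the test with all libraries, and its log2 change was 0.26 without knockout replicate 3 (edgeR adjusted p = 0.0176). The share of Aldoc in the per-length level of both genes was 3.75, 4.04 and 3.97% in WT and 1.30, 1.11 and 0.278% in knockout cells, and the genotypes did not overlap (p = 0.1, exact permutation test).

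In the steps after aldolase, which include those that return ATP, the genes rose or did not pass the test with all libraries. Tpi1, the gene of triose phosphate isomerase, had CPM values of 379, 344 and 388 in WT and 297, 294 and 410.3 in knockout cells, with replicates 1 and 2 below WT and replicate 3 above it, and its log2 change was -0.15 (edgeR adjusted p = 0.445) and -0.32 without knockout replicate 3 (edgeR adjusted p = 0.00175). Gapdh encodes glyceraldehyde 3-phosphate dehydrogenase, and its CPM was 1787, 1595 and 1671 in WT and 1909.7, 2003 and 2870.4 in knockout cells. The 3 knockout libraries were above WT, with a log2 change of 0.42 ± 0.166 (edgeR adjusted p = 0.0915), and 0.22 without knockout replicate 3 (edgeR adjusted p = 0.0184). Pgk1, an X-linked gene of phosphoglycerate kinase, had CPM values of 553, 514 and 542 in WT and 597, 592 and 1042 in knockout cells. Knockout replicates 1 and 2 lay close together, and replicate 3 was far above them. The log2 change of 0.47 ± 0.223 (edgeR adjusted p = 0.146) did not pass the test with all libraries, and the log2 change was 0.15 without knockout replicate 3 (edgeR adjusted p = 0.0390).

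Pgam1 (ENSMUSG00000011752, chr19:41911923-41918660, plus strand) encodes phosphoglycerate mutase, and its CPM was 397, 369 and 392 in WT and 531, 524 and 887 in knockout cells. It rose 1.68-fold in knockout cells with a log2 change of 0.75 ± 0.209 (edgeR adjusted p = 0.0354). Replicate 3 was the highest library, and the log2 change was 0.45 without knockout replicate 3 (edgeR adjusted p = 8.69e-05). The CPM of Pkm (ENSMUSG00000032294, chr9:59656368-59679375, plus strand), the gene of the pyruvate kinases that make pyruvate and ATP, was 1875, 1619 and 1872 in WT and 2365, 2072 and 2568 in knockout cells. Its libraries did not overlap between genotypes, with a log2 change of 0.38 ± 0.114 (edgeR adjusted p = 0.0417), and the counts do not separate its M1 and M2 isoforms. Ldha encodes the lactate dehydrogenase subunit that favours lactate, and its CPM was 839, 770.1 and 831 in WT and 833, 786 and 1153 in knockout cells. Knockout replicates 1 and 2 were within the range of WT and replicate 3 was above it, with a log2 change of 0.18 (edgeR adjusted p = 0.380) and -0.0059 without knockout replicate 3 (edgeR adjusted p = 0.946).

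Eno1 (ENSMUSG00000063524, chr4:150236721-150248879, plus strand) encodes the main enolase, and its CPM was 1051, 1091 and 1110.1 in WT and 1381, 1364 and 1911 in knockout cells. It rose with a log2 change of 0.52 ± 0.143 (edgeR adjusted p = 0.0344), and its log2 change was 0.34 without knockout replicate 3 (edgeR adjusted p = 0.000584). A near-identical gene, Eno1b, was counted separately at 179, 3.89 and 87.7 CPM in WT replicates 1 to 3 and at 4.75 to 5.95 CPM in knockout libraries. Summed over both genes, the CPM was 1231, 1095 and 1198 in WT and 1387, 1368 and 1917 in knockout replicates 1 to 3, and the libraries still did not overlap. The log2 change of the sum was 0.41 (standard error 0.147, adjusted p = 0.0737, edgeR), which did not pass the test, and 0.23 without knockout replicate 3 (adjusted p = 0.0108, edgeR). The call of Eno1 with all libraries is therefore uncertain. Eno2, the neuronal enolase gene, had 19.1 to 25.6 CPM with overlapping libraries and a log2 change of -0.095 (edgeR adjusted p = 0.576), and -0.061 without knockout replicate 3.

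**Figure D2:**
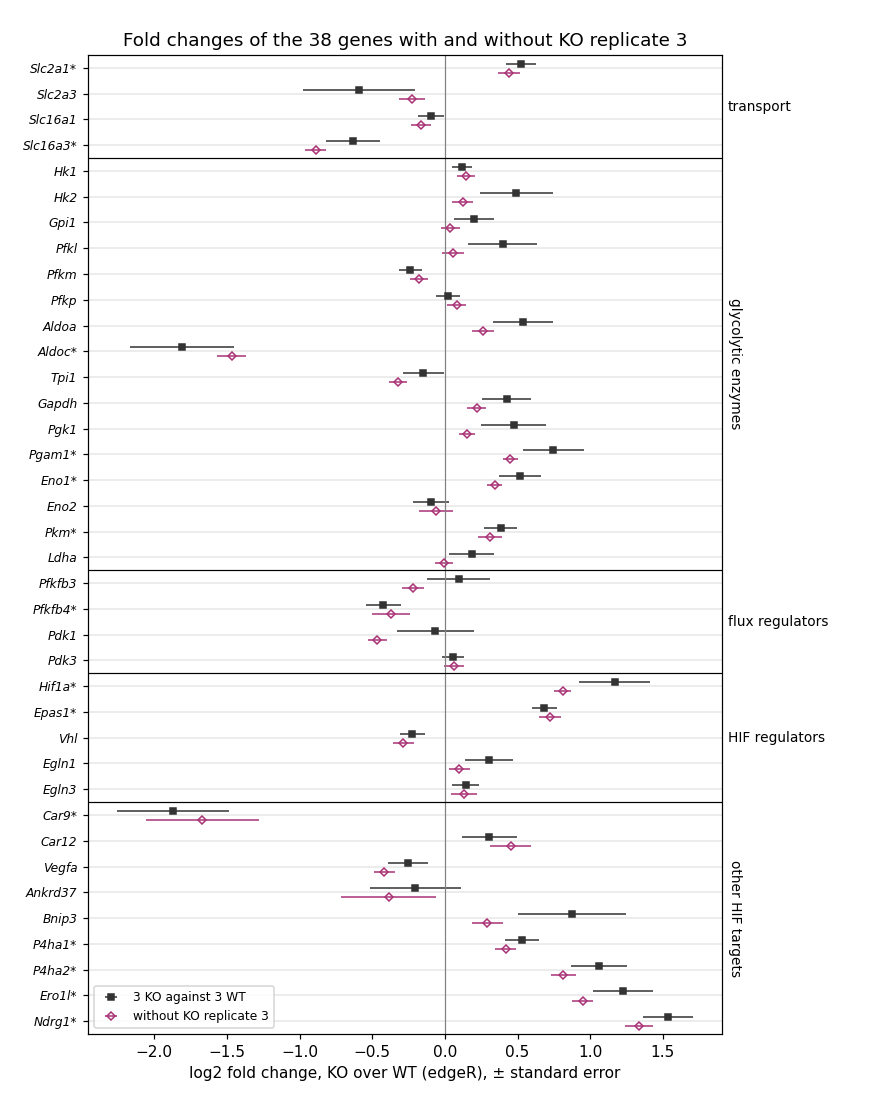
log2 change of knockout over WT for each of the 38 genes, with squares for all 6 libraries, open diamonds without knockout replicate 3, bars for the standard error from edgeR, and asterisks for an adjusted p under 0.05 with all libraries. Most glycolytic enzymes lie closer to 0 without replicate 3, while Hif1a, Epas1, Ero1l and Ndrg1 stay to the right and Aldoc and Car9 to the left.

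Of the 4 genes that set the flow through glycolysis or the use of pyruvate, Pfkfb4 fell and none rose. The median log2 change of the 4 genes was -0.0051, and -0.30 without knockout replicate 3. Pfkfb3 and Pfkfb4 encode enzymes that make and remove fructose 2,6-bisphosphate, the activator of phosphofructokinase. The CPM of Pfkfb4 (ENSMUSG00000025648, chr9:108991778-109032228, plus strand) was 9.70, 10.02 and 11.01 in WT and 7.92, 7.88 and 7.10 in knockout cells, with a log2 change of -0.42 ± 0.123 (edgeR adjusted p = 0.0390) and no overlap between genotypes. Pfkfb3 had CPM values of 31.1, 30.1 and 30.8 in WT and 27.0, 25.7 and 45.6 in knockout cells. Its replicates 1 and 2 were below WT and replicate 3 was above it, so that its log2 change was 0.094 with all libraries (edgeR adjusted p = 0.764) and -0.22 without knockout replicate 3 (edgeR adjusted p = 0.0365).

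Pdk1 and Pdk3 encode kinases that switch off pyruvate dehydrogenase and so keep pyruvate from the mitochondria. The CPM of Pdk1 was 54.7, 51.3 and 50.9 in WT and 38.6, 37.0 and 74.3 in knockout cells. It showed the same split as Pfkfb3, with a log2 change of -0.065 with all libraries (edgeR adjusted p = 0.865) and -0.47 without knockout replicate 3 (edgeR adjusted p = 0.000338). Pdk3, which is X-linked, had 86.8 to 101 CPM in the 6 libraries, and its genotypes overlapped.

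Shares within 13 pairs of related genes were compared as the per-length level of 1 gene in the sum of both, which does not depend on the library size. The genotypes did not overlap in 8 of the 13 pairs. Among single genes, 54.8% of all tested had libraries that did not overlap, and no other pairs were compared. The first gene took a lower share in knockout cells in 6 of the 8 pairs, namely Slc2a3, Slc16a3, Aldoc, Eno2, Pfkm and Pfkfb4. It took a higher share in 2, namely P4ha2 and Car12. Each of the 8 gave p = 0.1 in the exact two-sided permutation test (0.163 after Benjamini-Hochberg adjustment over 13 pairs), the smallest that 3 against 3 libraries can give. The share of Slc16a3 in the sum with Slc16a1 was 48.4, 45.9 and 49.99% in WT and 33.8, 37.97 and 43.6% in knockout cells, with replicate 3 the closest to WT. The share of Eno2 in the sum with Eno1 was 1.58, 1.45 and 1.496% in WT and 1.30, 0.987 and 0.771% in knockout cells. It was computed without Eno1b and without Eno3, a further enolase gene. Eno3 had a mean of 25.8 CPM per kilobase in WT and 15.5 in knockout cells, and its log2 change was -0.73 ± 0.158 (edgeR adjusted p = 0.0165). In the other 5 pairs the genotypes overlapped. The share of Epas1 in the sum with Hif1a was 16.1, 16.7 and 17.3% in WT and 17.5, 14.4 and 8.64% in knockout cells, and knockout replicate 3 was the lowest library.

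**Figure D3:**
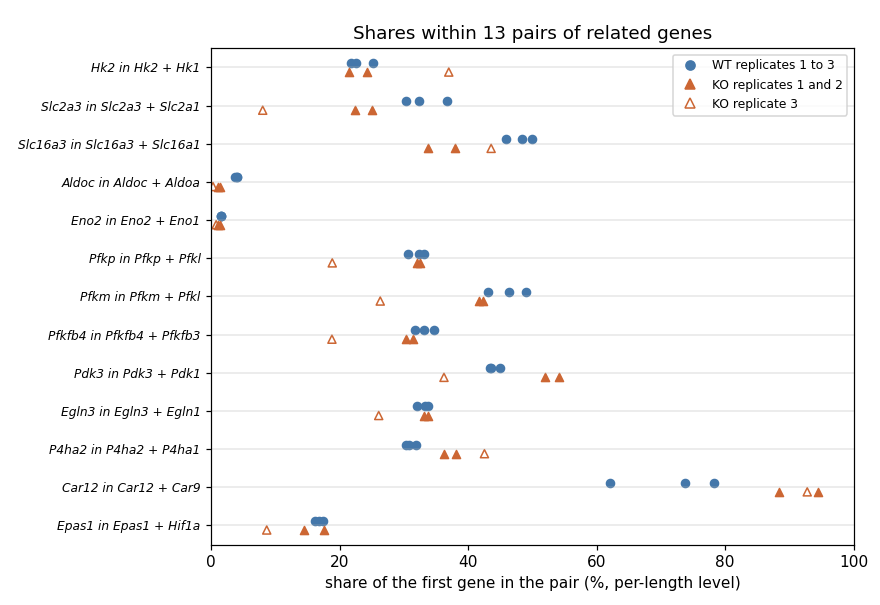
Share (%) of the first gene in the per-length level of each of 13 pairs of related genes, with circles for WT, filled triangles for knockout replicates 1 and 2 and open triangles for knockout replicate 3. The knockout triangles of Aldoc, Slc2a3 and Slc16a3 lie to the left of all WT circles, and those of P4ha2 and Car12 to the right.

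Gapdh was the reference gene of the RT-qPCR of the study and is one of the 38 genes, so its level was set beside 11 other genes in common use as references. Its primers, shown because they define what that assay measured, match GENCODE release M21 transcripts of Gapdh in coding sequence of exons 3 and 4 (chr6:125163009-125163186 of GRCm38, minus strand), with a product of 80 bases.
Gapdh forward: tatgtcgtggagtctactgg
Gapdh reverse: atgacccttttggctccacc
Both primers also match transcripts of 46 other annotated genes, of which 2 were in the count table (Gm10358, at 3.42 to 5.48 CPM, and Gm3839, at 0 to 0.238 CPM). Of the 12 reference genes, Actb, Hprt, B2m and Ywhaz rose, Ppia fell and 7 did not pass the test, and the median log2 change was 0.30. Without knockout replicate 3 the median was 0.18, with 7 higher and 2 lower, while 0 to 3 were higher and 0 lower with any other library left out. Over all genes tested, 16.4% rose and 16.6% fell with all libraries, and 23.9% and 24.2% without knockout replicate 3. Actb, the gene of β-actin, had CPM values of 2308, 2266 and 2210.2 in WT and 2741, 2759 and 2970.0 in knockout cells and a log2 change of 0.32 ± 0.0821 (edgeR adjusted p = 0.0273). Ppia, the gene of cyclophilin A, had CPM values of 1381, 1374 and 1375 in WT and 1137, 1171 and 1187 in knockout cells and a log2 change of -0.24 ± 0.0698 (edgeR adjusted p = 0.0392). Both differences were larger than the spread within each genotype. Tbp, the gene of the TATA-binding protein, had 23.9 to 29.4 CPM with overlapping libraries and a log2 change of 0.11 (edgeR adjusted p = 0.369).

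**Figure D4:**
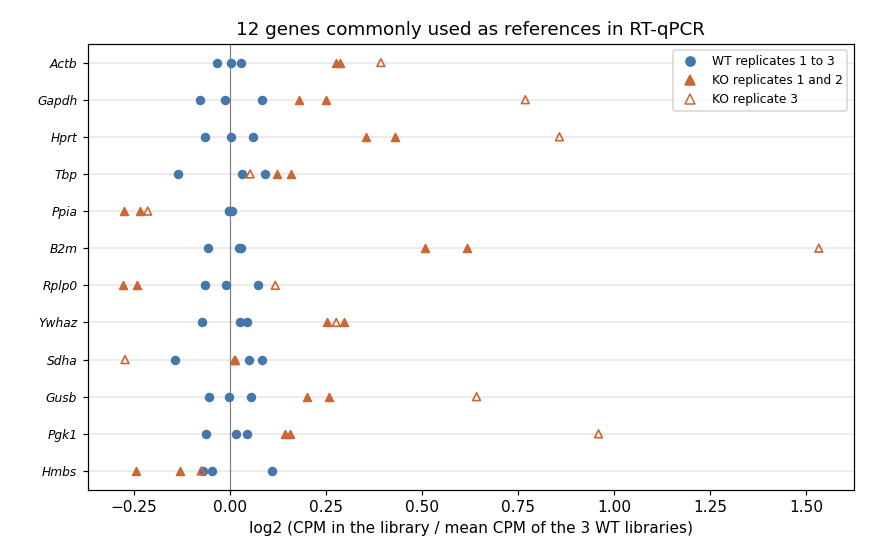
Level of 12 genes used as references in RT-qPCR in each library, as log2 of the CPM over the mean CPM of the 3 WT libraries, with circles for WT, filled triangles for knockout replicates 1 and 2 and open triangles for knockout replicate 3. Gapdh lies to the right in all 3 knockout libraries and Ppia to the left, and Tbp and Sdha overlap with WT.

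The other genes of the same pathways were taken from lists of symbols. Of 31 further genes of glycolysis and pyruvate use in the table, 27 were tested, with a median log2 change of 0.035. Of the 27 genes 6 rose and 4 fell, against 16.4% and 16.6% of all genes tested. The median was -0.079 without knockout replicate 3 and -0.023 without WT replicate 2, and with 1 library left out at a time 1 to 6 genes were higher and 0 to 6 lower, the fewest without a WT library. Among the genes that passed the test with libraries that did not overlap, those with the largest changes rose. Fbp2, a fructose bisphosphatase gene that acts against glycolysis, had 10 counts summed over WT and 96 over knockout libraries, a ratio of 9.63 with a 95% interval of 5.01 to 20.7 (exact, counting error only), and a log2 change of 3.22 ± 0.546 (edgeR adjusted p = 0.00840). Pdk4, another pyruvate dehydrogenase kinase gene, had CPM values of 3.52, 2.90 and 3.56 in WT and 6.30, 6.69 and 14.9 in knockout cells and a log2 change of 1.48 ± 0.365 (edgeR adjusted p = 0.0243), with 0.97 without knockout replicate 3 (edgeR adjusted p = 0.00211). Bpgm, which encodes the enzyme that makes 2,3-bisphosphoglycerate, had a log2 change of 0.89 ± 0.177 (edgeR adjusted p = 0.0129). Bsg encodes basigin, which carries MCT1 and MCT4 to the membrane. Its CPM was 476, 444 and 458 in WT and 675, 713 and 1020.2 in knockout cells, with a log2 change of 0.81 ± 0.161 (edgeR adjusted p = 0.0133), whereas the gene of MCT4 itself, Slc16a3, fell.

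Of 40 further genes of the hypoxia response, all were tested, and 14 rose and 7 fell, against 16.4% and 16.6% of all genes tested. The median log2 change of the 40 genes was 0.39 with all libraries and 0.05 without knockout replicate 3. With 1 library left out at a time 5 to 16 genes were higher and 0 to 10 lower, again the fewest without a WT library. Among the rises, Edn1, the gene of the vasoconstrictor endothelin 1, had CPM values of 3.38, 3.13 and 4.98 in WT and 15.6, 15.5 and 38.1 in knockout cells and a log2 change of 2.59 ± 0.420 (edgeR adjusted p = 0.00760). Lox, the gene of the collagen cross-linking enzyme lysyl oxidase, had CPM values of 1036, 983 and 937 in WT and 1934, 2154 and 4899 in knockout cells and a log2 change of 1.60 ± 0.353 (edgeR adjusted p = 0.0173). Ier3, an immediate early response gene, had a log2 change of 1.63 ± 0.495 (edgeR adjusted p = 0.0451). Knockout replicate 3 was the highest library for each of these 3 genes, and without it their log2 changes were 2.02, 1.05 and 0.79, each with an edgeR adjusted p of 0.000309 or lower.

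For 6 of the 38 genes (Pfkm, Pfkp, Aldoa, Tpi1, Gapdh and Ankrd37) exons overlap a gene of the opposite strand that is also in the count table, and the sources used here do not state whether the counting used the strand, so that reads of both cannot be told apart. None of these 6 was called with all libraries. Transcripts of 9 of the 38 genes match another gene over at least 300 bases at 95% identity or more, and only for Gapdh and Eno1 was such a gene in the count table.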

How the data were processed

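Counts of 3 WT and 3 Rnf20-/- cultures on day 3 were analysed, with groups from the sample labels. The authors deposited whole-number counts per gene without normalization for 16982 genes, and FPKM values for 12633 genes. The FPKM values were used for the FPKM threshold and for an alternative form of the pair ratios. The shares and pair ratios themselves came from counts per gene length. Per the labels, the processing tools were HISAT2 2.1.0 and Cufflinks 2.1.1 with GRCm38/mm10, and the counting program is not given in the sources used here. The authors' deposited log2 fold changes and FDR values per gene were not used. The FPKM table repeats the counts per sample without a difference.

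Counts were normalized by TMM, filtered by filterByExpr at its defaults and tested by edgeR 4.0.16 (R 4.3.3) without covariates. A standard error is the size of the log2 change over the root of its F value. CPM per kilobase uses the deposited gene lengths. Pair ratios used a pseudocount of 0.5 counts. In simulated counts of 3 against 3 libraries, 63% of 100 genes moved by a log2 change of 1 and 91% of 100 moved by 2 were called. Of the 13397 genes run, 7 unchanged genes were called. The simulation drew each gene independently, moved no other genes and had no library that stood apart. In the data, knockout replicate 3 stood apart and 4413 of 13386 genes were called, so these rates do not carry over to them. The members and lists were chosen with earlier results of these data known. The text gives every member, the 4 genes of each list of further pathway genes with the largest absolute log2 fold change among those with an adjusted p under 0.05 and libraries that did not overlap, and Rnf20. One gene that this rule names is not reported here. Positions and transcripts came from GENCODE M21 and matches between transcripts from BLAST+ 2.17.0. Intervals and the floor of 3 counts cover counting error only. The alternatives comprised library size only, RLE size factors, other filters, DESeq2 1.42.0, the replicate number as a block and each library left out. A term for Y-linked counts and the sum of Eno1 with Eno1b were added after the data were seen.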

Additional observations from a re-analysis of the deposited data

How the results depend on the processing

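With 1 library left out at a time, 0 to 10 of the 38 genes were lower, 3 to 15 higher and 0 to 3 past the limits of the study, and the medians ran from -0.37 to -0.19 for the transporters, from 0.10 to 0.39 for the glycolytic enzymes and from -0.30 to 0.11 for the flow regulators. Of the 13386 genes, 699 to 3267 were lower and 691 to 3205 higher in these fits. In the same fits the log2 change ran from -0.021 to 0.081 for Pfkp, -0.0059 to 0.29 for Ldha, -0.22 to 0.25 for Pfkfb3, -0.47 to 0.12 for Pdk1 and -0.15 to 0.014 for Sdha, and the log2 pair ratio from -0.021 to 0.53 for Hk2 over Hk1, -0.51 to 0.022 for Pfkp over Pfkl and -0.23 to 0.032 for Egln3 over Egln1. At an adjusted p under 0.01 there were 0 lower genes (18 of the 38 had an unadjusted p under 0.05 from edgeR) and 3 higher genes. DESeq2 called 5 lower and 13 higher genes, of which 6 passed the limits of the study. Over all 13386 genes DESeq2 called 5101, against 4413 in the main fit. RLE size factors and DESeq2 turned the median of the flow regulators to 0.0039 each. RLE size factors and both other filters kept all 38 genes on their side of the threshold. Library size only shifted the median of all genes by -0.060, gave 6 lower and 9 higher genes, and turned Pfkp to -0.042 and Pdk3 to -0.0047. It called 4434 of all 13386 genes. The authors' FPKM turned Pdk3 over Pdk1 to -0.0053.

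Samples with the same replicate number had deviations from their group means with correlations of -0.066, 0.037 and 0.011. Knockout replicate 3 stood far from the other knockout libraries (chi-square value per gene of 92.8 and 102, against 8.59 between those) and so weighed on all knockout deviations. The correlations therefore cannot show whether samples with the same number were paired. With the replicate block there were 3 lower, 7 higher and 0 genes past the limits of the study, where DESeq2 gave 6. The block left 2875 of all 13386 genes called, against 4413 in the main fit. With a term for Y-linked counts, where the genotype effect rests on knockout replicate 2 against WT, 0 genes were lower, 0 higher and 0 past the limits, against 109 of 13386 genes called, and 10 of the 38 had an unadjusted p under 0.05. The medians were then -0.26 for the transporters, 0.080 for the glycolytic enzymes, -0.32 for the flow regulators and 0.32 for the other HIF-responsive genes, and the sign turned for Gpi1 (-0.024), Ldha (-0.051), Pfkfb3 (-0.26), Pdk3 (-0.032) and Sdha (0.013). All 14 genes called in the report kept their direction in that fit. The causes of these changes were not tested. Car9 and Ankrd37 had at most 3.32 CPM in any library, so counting error bears most on them.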
